A study of Mus musculus with 12 samples.

Results

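The genes of oxidative phosphorylation were examined in 12 MC38/hPD-L1 tumors, with the genes of the mitochondrial genome set beside those of the nucleus. Members were chosen by name (the prefix mt-, and the Nduf, Sdh, Uqcr, Cox4 to Cox8 and Atp5 families) and by a minimum of 10 counts in at least 4 of the 12 tumors. Of 33018 lines in the count table, 124 carried such a name and 89 reached the minimum: 7 of 13 mitochondrial mRNAs, both mitochondrial rRNAs, 0 of 22 mitochondrial tRNAs and 80 of 87 nuclear genes. The names also catch genes that are not subunits. Cox4nb encodes a protein of an endoplasmic reticulum complex and lies beside Cox4i1, and Atp5s, Atp5sl and Cox7a2l are likewise not core subunits of the enzymes they are named for.

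MC38 is a mouse colorectal adenocarcinoma line, here transduced with human PD-L1 because ALPN-202, a variant CD80 IgV domain fused to Fc, does not bind the mouse protein. Female C57BL/6NJ mice, 8 to 10 weeks old at the start, carried the tumors under the skin of the flank. They received 1 intraperitoneal dose on day 8: 100 µg of ALPN-202 (4 tumors), 100 µg of the anti-human PD-L1 antibody durvalumab (anti-PD-L1, 4 tumors) or 75 µg of an Fc control (4 tumors). Whole tumors were taken 72 h later, so tumor cells, immune cells, stroma and adjoining tissue share each library. Fewer cells of a type and less RNA per cell cannot be told apart in such samples. ALPN-202 and anti-PD-L1 were each set against the same 4 Fc control tumors, so these comparisons are not independent of each other.

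Oxidative phosphorylation moves electrons from NADH and succinate along complexes I to IV to oxygen, and the proton gradient that results drives ATP synthesis by complex V. Complexes I, III, IV and V are built from both genomes. The mitochondrial DNA contributes catalytic core proteins, read from long polycistronic transcripts together with the rRNAs and tRNAs of the mitochondrial ribosome, while the many remaining subunits and the whole of complex II are nuclear encoded and imported. Members were assigned to complexes by name only. Ndufa4 and Ndufa4l2 are thus counted under complex I, Cox4nb and Cox7a2l under complex IV, and Atp5s and Atp5sl under complex V.

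Total counts ranged from 3988266 to 10320376 in ALPN-202 tumors, from 8778710 to 10448187 in anti-PD-L1 tumors and from 6790794 to 10692817 in Fc control tumors. Gene values are given as normalised CPM, counts scaled to library size after the trimmed mean of M values (TMM) scaling of edgeR. The libraries labelled ALPN-202 replicate 4 and Fc control replicate 1 stood apart from the other 10. In them short transcripts were high, and the summed cytosolic ribosomal protein genes reached 73862 and 40863 CPM, against 13891 to 19819 CPM elsewhere. Fold changes and shares are therefore given with and without both where they turn on them. Markers of gut epithelium were scarce in a line named for colorectal carcinoma: Cdx2 had 0 counts in all 12 tumors, Krt20 and Vil1 were too low to test, and the 7 tested epithelial genes of 10 summed to 14.9 to 25.2 CPM in 8 tumors. The other 4 (ALPN-202 replicate 4, anti-PD-L1 replicates 2 and 4, and Fc control replicate 4) had 87.2 to 849 CPM of them and 1108 to 7102 CPM of 12 adipocyte genes, against 109 to 260 CPM of the adipocyte genes elsewhere.

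The first result concerned which mitochondrial mRNAs could be read at all. Cytochrome b (mt-Cytb) had 480451 counts over the 12 tumors, whereas mt-Co2 had 2 counts and mt-Atp8, mt-Atp6, mt-Co3, mt-Nd3 and mt-Nd4l had 0. These 6 genes lie next to each other, between mt-Co1 and mt-Nd4. On the NCBIM37 genome, chrM:6390-11042 recurred on chromosome 1 (chr1:24618374-24623027, minus strand) over 4654 aligned bases at 99.9% identity, with 2 mismatches and 1 gap. The libraries were read as 58-base single reads, and at least 99.0% of the 58-base windows of each of the 6 genes occurred elsewhere in the genome. Of the 7 counted mRNAs, mt-Nd4 had 62.0% of its windows elsewhere, mt-Co1 47.4%, mt-Nd2 7.34%, mt-Nd5 4.98%, and mt-Nd1, mt-Nd6 and mt-Cytb 0%. How the counting treated reads with several matches was not tested. The sequences below show the first 58 bases of 3 genes, each 1 read long. Those of mt-Co2 (chrM:7013-7070) and mt-Co3 (chrM:8607-8664) have the same letters at chr1:24622347-24622404 and chr1:24620753-24620810 on the minus strand, and that of mt-Cytb (chrM:14145-14202) has no copy.
mt-Co2: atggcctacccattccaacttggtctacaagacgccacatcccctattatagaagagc
mt-Co3: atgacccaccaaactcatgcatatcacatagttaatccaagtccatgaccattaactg
mt-Cytb: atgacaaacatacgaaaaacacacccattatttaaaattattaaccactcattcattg
A total for the mitochondrial mRNAs thus rests on 7 genes: 5 subunits of complex I, cytochrome b of complex III and mt-Co1 of complex IV. The mitochondrial part of complex V is not measured. The 22 tRNA genes, at most 75 bases long, had at most 25 counts each over all tumors, and 14 had 0.

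Levels between genes were compared on the deposited TPM, which divide by transcript length. The 7 counted mRNAs of the mitochondrial genome had a median of 1419 TPM over the 12 tumors, against 193 TPM for the 80 nuclear genes. mt-Cytb was highest at a mean of 8256 TPM, and mt-Nd6, the only mRNA gene on the opposite strand, was lowest among the mitochondrial genes at 36.0 TPM. The libraries did not keep strand, so reads of mt-Nd6 and of transcripts antisense to it cannot be told apart. Among nuclear genes the highest means were 1819 TPM for Cox4i1 in complex IV and 1600 TPM for Atp5b, the catalytic beta subunit of complex V. The highest of the other complexes were Ndufb9 in complex I (786 TPM), Uqcr10 in complex III (637 TPM) and Sdhd in complex II (361 TPM). The lowest were Ndufa4l2 (10.5 TPM), Uqcrb (114 TPM), Sdhc (97.8 TPM), Cox4i2 (5.31 TPM) and Atp5g2 (3.74 TPM) for complexes I, III, II, IV and V. Atp5g2 has all of its 58-base windows elsewhere in the genome, and 10 of the 80 nuclear members have over 20% there, so their levels are uncertain. The levels of mt-Nd4 and mt-Co1, with 62.0% and 47.4% of windows elsewhere, are uncertain as well.

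**Figure D1:**
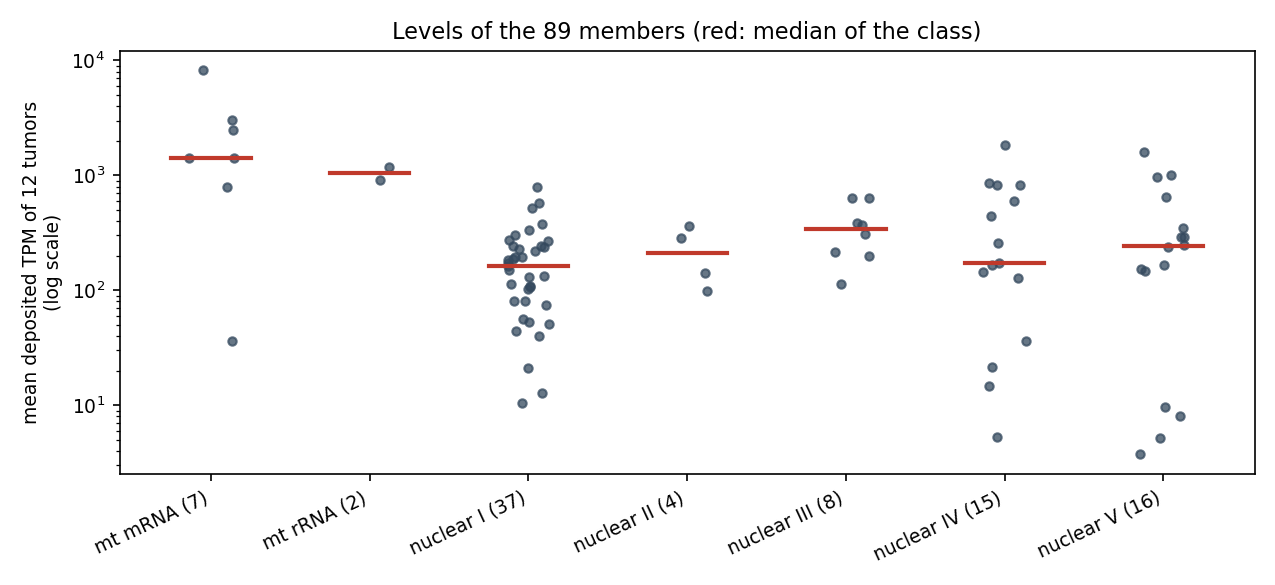
Mean deposited TPM over 12 tumors (log scale) for each of the 89 members, by genome and complex. Red lines mark the class median, which was 1419 TPM for mitochondrial mRNAs and 163 to 340 TPM for the nuclear genes of complexes I to V.

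The question by treatment was whether the mitochondrial and the nuclear genes differed alike between groups. Mitochondrial mRNAs took 0.903%, 0.875%, 0.830% and 0.753% of all counts in ALPN-202 tumors, against 1.00%, 0.954%, 1.36% and 1.08% in Fc control tumors. All 4 ALPN-202 tumors lay below all 4 Fc control tumors, with means of 0.840 ± 0.0656% and 1.10 ± 0.182% (SD, n = 4 each). Without the 2 libraries the means were 0.869 ± 0.0368% in ALPN-202 tumors and 1.13 ± 0.208% in Fc control tumors (SD, n = 3 each), and the groups again did not overlap. These shares are of raw library totals. On TMM-scaled log2 CPM minus the median of the 12 tumors, the groups overlapped. The median over the mitochondrial mRNAs was then -0.0516 in Fc control replicate 2, against -0.0509 and 0.0261 in ALPN-202 replicates 1 and 4. Anti-PD-L1 tumors had 0.823%, 1.45%, 1.03% and 0.998% and overlapped both other groups. The 1.45% was the highest of the 12 and belonged to anti-PD-L1 replicate 2, the tumor with 7102 CPM of adipocyte genes. Their part in it was not tested.

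Nuclear members took 0.952%, 0.998%, 1.01% and 2.64% of counts in ALPN-202 tumors, 1.11%, 1.22%, 1.13% and 1.03% in anti-PD-L1 tumors and 2.00%, 1.26%, 1.03% and 1.15% in Fc control tumors. The 2.64% and 2.00% are ALPN-202 replicate 4 and Fc control replicate 1. Without them the means were 0.987 ± 0.0304% (SD, n = 3) in ALPN-202 tumors, 1.12 ± 0.0766% (SD, n = 4) in anti-PD-L1 tumors and 1.15 ± 0.117% (SD, n = 3) in Fc control tumors. No ALPN-202 value then reached the lowest of either other group. The log2 ratio of mitochondrial mRNA to nuclear counts was -0.59 ± 0.82 in ALPN-202 tumors, -0.09 ± 0.28 in anti-PD-L1 tumors and -0.27 ± 0.59 in Fc control tumors (SD, n = 4 each). The difference between ALPN-202 and Fc control, -0.32, was smaller than either group's SD and became 0.09 without ALPN-202 replicate 4 and -0.15 without both libraries. Once both were set aside, the ratio was -0.18 ± 0.10 (SD, n = 3) in ALPN-202 tumors and -0.03 ± 0.41 (SD, n = 3) in Fc control tumors. The 95% Wilson intervals of the shares reach at most 0.0157 percentage points to either side and cover counting error only.

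**Figure D2:**
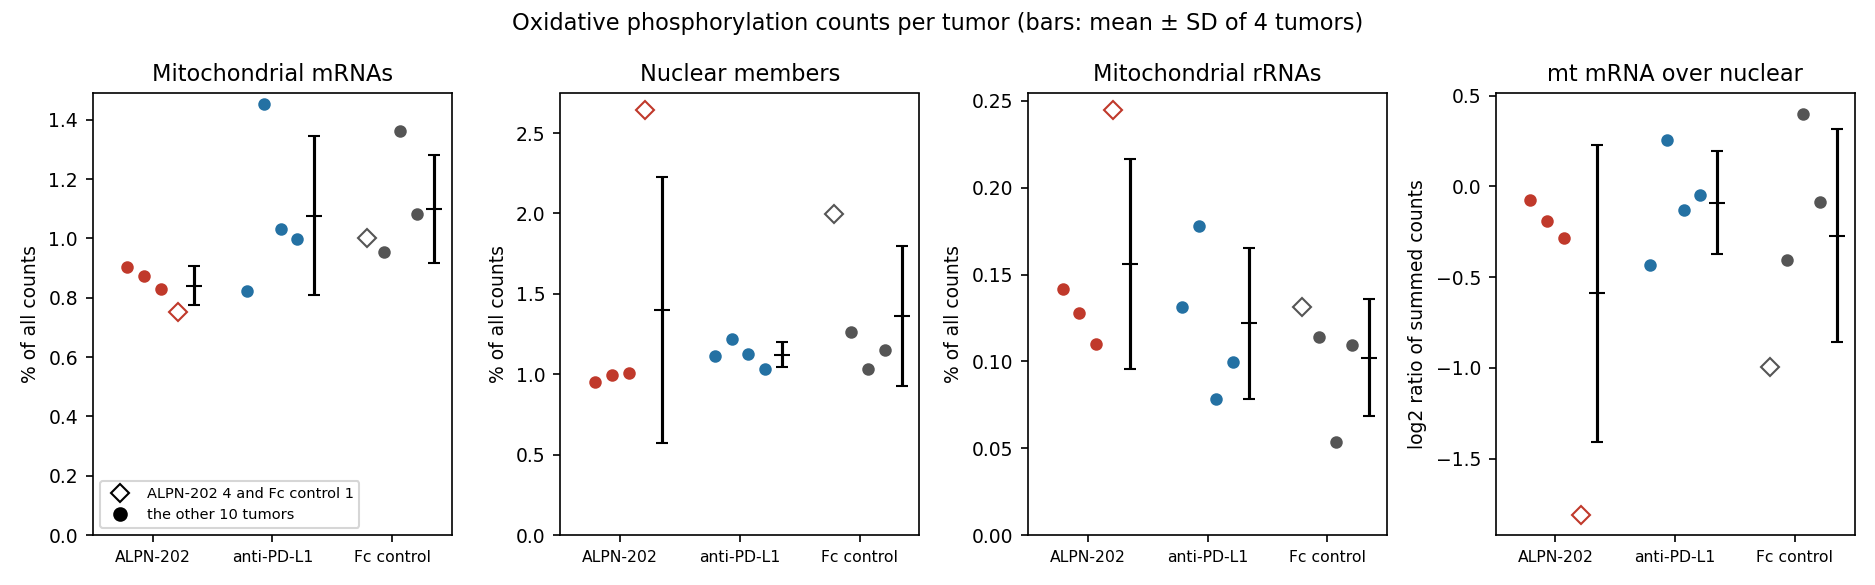
Share of all counts (raw totals, before TMM scaling) in mitochondrial mRNAs, nuclear members and mitochondrial rRNAs, and the log2 ratio of the first to the second, for each of 12 tumors, with mean and SD of 4 tumors beside each group. Open diamonds mark ALPN-202 replicate 4 and Fc control replicate 1, which have 2.64% and 2.00% nuclear counts, while the 4 ALPN-202 values of mitochondrial mRNA (0.753% to 0.903%) all lie below the Fc control values.

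No single member passed the test over all 12 tumors. There edgeR called 0 of 89 members in either direction between ALPN-202 and Fc control at an adjusted p under 0.05 (background 0.0% of 14142 genes in each direction). DESeq2 also called 0 members, against 1.34% of all genes higher and 0.304% lower. Before adjustment 1 member was higher and 0 were lower at 0.05 in edgeR, against 7.2% and 1.98% of all genes. limma-voom with sample quality weights called 1 member higher (Ndufa4l2) and 8 (8.99%) lower (among them mt-Cytb, mt-Nd6, Cox6c, Ndufa4, Atp5d and Atp5g1), against 10.8% and 4.43% of all genes. The 7 mitochondrial mRNAs had a median log2 fold change of -0.37, against 0.04 for all genes. In CPM 2 of the 89 members (2.25%) lay below in every ALPN-202 tumor and 1 (1.12%) above, against 1.51% and 2.67% of all genes.

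The 2 members below in every ALPN-202 tumor were mt-Nd1 and mt-Nd2, membrane subunits of complex I. mt-Nd1 had 1006, 971, 889 and 1043 CPM in ALPN-202 tumors, against 1676, 1115, 1354 and 1073 CPM in Fc control tumors. Its log2 fold change was -0.42 ± 0.23 (SE, edgeR adjusted p = 0.683), and the nearest values of the groups, 1043 and 1073 CPM, almost touched. mt-Nd2 had 620, 590, 525 and 557 CPM in ALPN-202 tumors, against 767, 642, 897 and 698 CPM in Fc control tumors (log2 fold change -0.39 ± 0.21 SE, edgeR adjusted p = 0.658). mt-Cytb had 3512, 3625, 3305 and 4869 CPM in ALPN-202 tumors, against 4871, 4264, 5627 and 5010 CPM in Fc control tumors (log2 fold change -0.37 ± 0.19 SE, edgeR adjusted p = 0.630). Only ALPN-202 replicate 4 overlapped the controls. Without both libraries mt-Cytb was at -0.53 ± 0.17 (SE, edgeR adjusted p = 0.0823), past 0.05 only before adjustment.

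The other mRNAs were less even. mt-Nd4 had 799, 669, 703 and 871 CPM in ALPN-202 tumors and 855, 901, 1070 and 1128 CPM in Fc control tumors (log2 fold change -0.38 ± 0.23 SE, edgeR adjusted p = 0.758). mt-Co1, the catalytic subunit of complex IV, had 2365, 1969, 2039 and 2106 CPM in ALPN-202 tumors and 2700, 1702, 2717 and 1910 CPM in Fc control tumors, with full overlap (log2 fold change -0.09 ± 0.22 SE). mt-Nd5 had 750, 774, 720 and 334 CPM in ALPN-202 tumors and 480, 612, 833 and 583 CPM in Fc control tumors, and its fold change of 0.04 ± 0.31 (SE) changed sign when any of several tumors was left out. The 334 and 480 CPM, the lowest of the 12, were again the 2 libraries that stood apart. mt-Nd5 is the longest mRNA of the set, at 1824 bases.

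mt-Nd6 behaved unlike the rest in ALPN-202 replicate 4. It had 3.71, 3.43, 4.69 and 23.5 CPM in ALPN-202 tumors, 7.54, 12.2, 11.7 and 6.58 CPM in anti-PD-L1 tumors and 7.02, 6.82, 8.51 and 15.9 CPM in Fc control tumors. Replicates 1 to 3 of ALPN-202 were the 3 lowest of all 12 tumors and replicate 4 was the highest. Over 12 tumors the log2 fold change against Fc control was -0.20 ± 0.59 (SE, edgeR adjusted p = 1.000). With the 2 libraries left out, mt-Nd6 fell in ALPN-202 tumors by 1.42 ± 0.36 on the log2 scale (SE, edgeR adjusted p = 0.0411), and it was at -1.30 ± 0.34 against anti-PD-L1 (SE, edgeR adjusted p = 0.0554). The counts behind this are few, 27, 36 and 47 in those ALPN-202 tumors and 59, 99 and 158 in the 3 Fc control tumors.

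The rRNAs of the mitochondrial ribosome did not follow the mRNAs. mt-Rnr1 (12S) had 589, 561, 468 and 1214 CPM in ALPN-202 tumors, against 662, 464, 226 and 473 CPM in Fc control tumors (log2 fold change 0.63 ± 0.39 SE, edgeR adjusted p = 0.758). mt-Rnr2 (16S) had 834, 694, 616 and 1973 CPM in ALPN-202 tumors, against 826, 641, 266 and 581 CPM in Fc control tumors (log2 fold change 0.83 ± 0.43 SE, edgeR adjusted p = 0.637). The groups overlapped for both genes. The highest tumor of the 12 was ALPN-202 replicate 4 and the lowest was Fc control replicate 3, and the log2 fold changes of mt-Rnr1 and mt-Rnr2 were 0.24 and 0.30 without ALPN-202 replicate 4, 0.41 and 0.59 without Fc control replicate 3, and 0.46 and 0.52 without the 2 libraries. The line named Mir5105, which is no member, had 5222 CPM in ALPN-202 replicate 4 and 590 CPM in Fc control replicate 3, its highest and lowest tumors too. Its part in the rRNA result was not tested.

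Most nuclear members were high in the 2 libraries that stood apart, and the mitochondrial mRNAs were not. Against the median of the 12 tumors, the 80 nuclear genes had a median log2 deviation of 1.80 in ALPN-202 replicate 4 and 1.19 in Fc control replicate 1, and 72 of the 80 (90.0%) were above each of the other 10 tumors in both libraries. Of the 14053 other genes, 30.4% were. The 7 mitochondrial mRNAs had median deviations of 0.03 and 0.13, and 0 of 7 were above the other 10 tumors in both. Uqcrh, the hinge protein of complex III, deviated most in ALPN-202 replicate 4, by 3.60 on the log2 scale, with 143, 116, 141 and 1729 CPM in ALPN-202 tumors, 155, 155, 138 and 135 CPM in anti-PD-L1 tumors and 581, 197, 124 and 134 CPM in Fc control tumors. Atp5e, the epsilon subunit of complex V, had 1615 CPM in ALPN-202 replicate 4 and 529 CPM in Fc control replicate 1, against 112 to 216 CPM elsewhere. Sdha, the flavoprotein of complex II, went the other way and was lowest in both, at 98.0 and 123 CPM, against 167 to 319 CPM elsewhere.

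The deviations were also set beside transcript length, taken as that of the longest annotated transcript. The nuclear members have a median length of 967 bases, against 2953 bases for all genes tested. In ALPN-202 replicate 4 the 11 nuclear members of up to 600 bases had a median deviation of 1.99, the 31 of over 600 to 1000 bases 1.89 and the 38 longer ones 1.35. Other genes in these length classes had 1.39, 1.26 and -0.07. In Fc control replicate 1 the nuclear members had 1.30, 1.28 and 1.02, and the other genes 0.90, 0.87 and -0.04. The mitochondrial mRNAs span 519 to 1824 bases. Within that range the 58 nuclear members had median deviations of 1.84 in ALPN-202 replicate 4 and 1.25 in Fc control replicate 1, against 0.85 and 0.63 for 3127 other genes and 0.03 and 0.13 for the mitochondrial mRNAs. In that range the median of the nuclear members was thus above, and that of the mitochondrial mRNAs below, the median of other genes in both libraries. The longest transcript need not be the one expressed, and the part of length in these deviations was not tested.

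**Figure D3:**
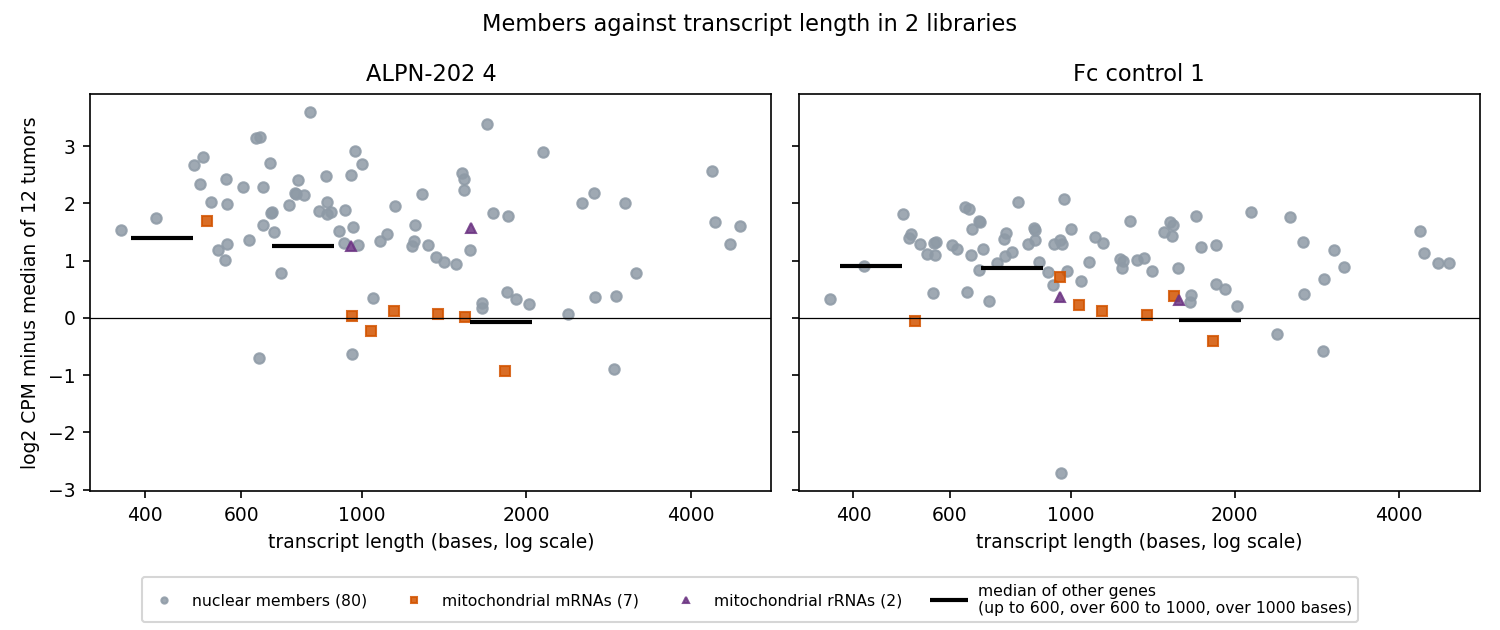
Log2 CPM minus the median of 12 tumors for each member against transcript length (log scale), in ALPN-202 replicate 4 and Fc control replicate 1, with black lines for the medians of all other genes in 3 length classes. Nuclear members (grey) have medians of 1.80 and 1.19, and the mitochondrial mRNAs (orange) of 0.03 and 0.13.

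The direction of the nuclear genes by treatment turned on these 2 libraries. Between ALPN-202 and Fc control the 80 nuclear genes had a median log2 fold change of 0.22 over 12 tumors, 0.53 without Fc control replicate 1, -0.54 without ALPN-202 replicate 4 and -0.17 without both, beside 0.04 for all genes over 12 tumors and -0.03 without both. By complex the medians over 12 tumors were 0.23 for complex I (37 genes), 0.07 for complex II (4 genes), 0.33 for complex III (8 genes), 0.19 for complex IV (15 genes) and 0.13 for complex V (16 genes). Without both libraries they were -0.14, -0.04, -0.17, -0.22 and -0.21. The median of the mitochondrial mRNAs stayed negative, at -0.37 with both libraries and -0.39 without.

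**Figure D4:**
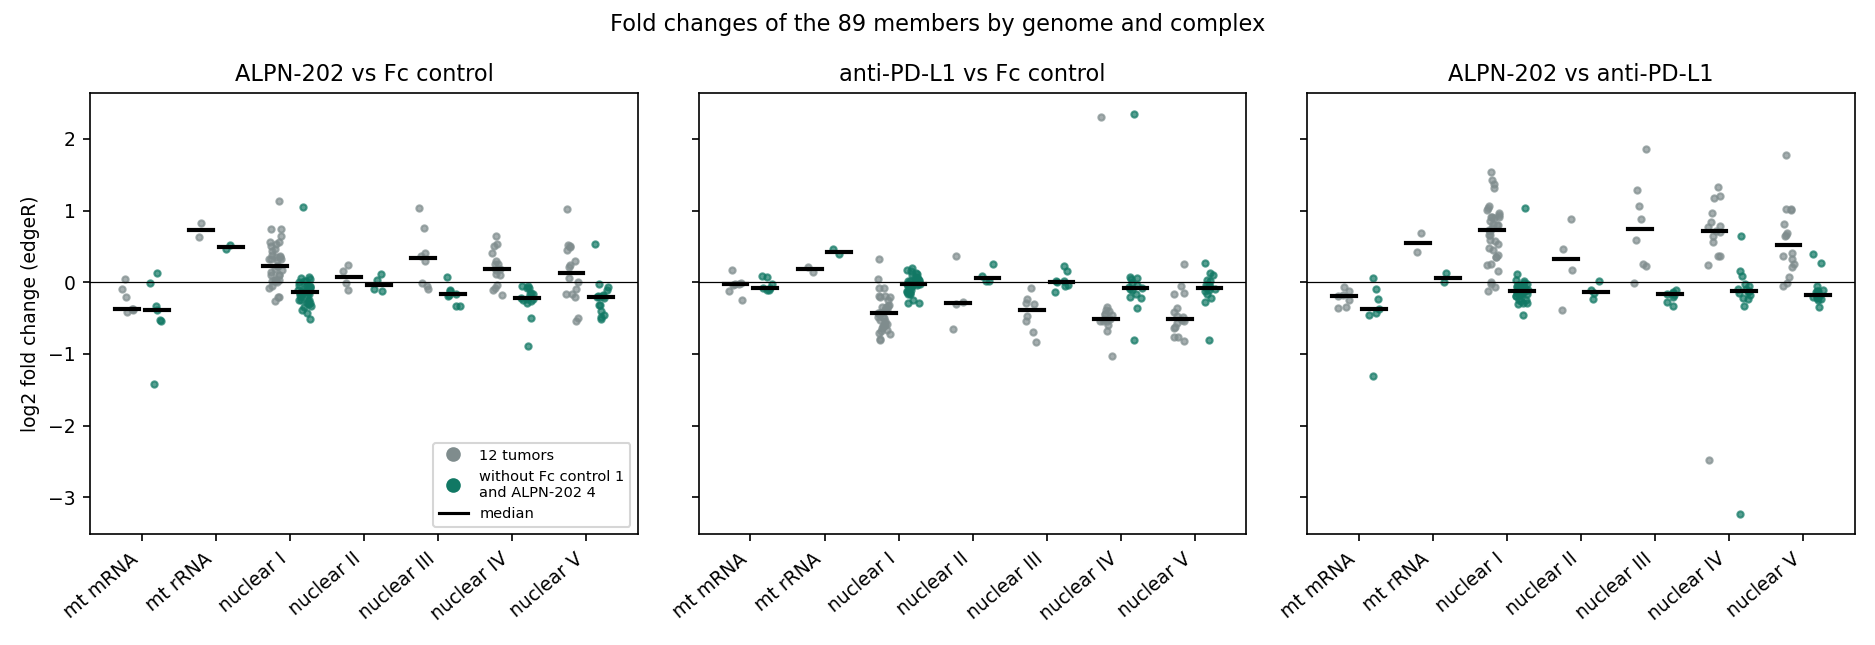
Log2 fold changes from edgeR for the 89 members in 3 comparisons, by genome and complex, over 12 tumors (grey) and without ALPN-202 replicate 4 and Fc control replicate 1 (green), with medians as black lines. Between ALPN-202 and Fc control the nuclear median is 0.22 over 12 tumors and -0.17 without the 2 libraries, and that of the mitochondrial mRNAs is -0.37 and -0.39.

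Once the 2 libraries were dropped, edgeR called 0 members higher and 4 of 89 (4.49%) lower in ALPN-202 than in Fc control tumors, against 5.47% of all genes higher and 2.0% lower. Before adjustment 1 member was higher and 14 (15.7%) were lower at 0.05, against 14.3% and 11.7% of all genes. In CPM 16 members (18.0%) were below in every ALPN-202 tumor and 2 above, against 13.4% and 18.9% of all genes. Beside mt-Nd6 the called genes were Cox6c, Ndufa4 and Atp5d. Cox6c and Atp5d were picked after their values were seen. Short transcripts were not level in the tumors kept. Genes outside the set of up to 600 bases had median deviations of 0.16, -0.21 and -0.01 in Fc control replicates 2, 3 and 4. In ALPN-202 replicates 1, 2 and 3 they had -0.12, -0.09 and -0.05. The part of this spread in the lower member levels was not tested. Leaving out only 1 of the 2 libraries gave 0 called members, and the share of all genes called in those fits was not compared.

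Cox6c, a nuclear subunit of complex IV (chr15:35855641-35868001, minus strand, NCBIM37), had 156, 159, 164 and 803 CPM in ALPN-202 tumors, 206, 203, 195 and 181 CPM in anti-PD-L1 tumors and 455, 237, 198 and 235 CPM in Fc control tumors. ALPN-202 replicates 1 to 3 lay below all 9 other tumors. Without the 2 libraries Cox6c fell by 0.50 ± 0.08 against Fc control (log2, SE, edgeR adjusted p = 0.0139) and by 0.33 ± 0.08 against anti-PD-L1 (log2, SE, edgeR adjusted p = 0.0379). Over 12 tumors it was at 0.19 ± 0.51 and 0.70 ± 0.51 (SE), in the opposite direction. Ndufa4, first placed in complex I and since assigned to complex IV (chr6:11850373-11857446, minus strand), had 74.5, 80.6, 73.1 and 627 CPM in ALPN-202 tumors, 98.4, 118, 103 and 89.3 CPM in anti-PD-L1 tumors and 348, 126, 98.7 and 98.6 CPM in Fc control tumors. With the 2 libraries left out, it fell by 0.52 ± 0.12 against Fc control (log2, SE, edgeR adjusted p = 0.0284) and by 0.46 ± 0.11 against anti-PD-L1 (log2, SE, edgeR adjusted p = 0.0401), and over 12 tumors it was at 0.35 ± 0.69 and 1.06 ± 0.70 (SE).

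Atp5d, the delta subunit of complex V (chr10:79601377-79608563, plus strand), had 319, 336, 361 and 795 CPM in ALPN-202 tumors and 714, 487, 380 and 516 CPM in Fc control tumors. It fell by 0.46 ± 0.11 without the 2 libraries (log2, SE, edgeR adjusted p = 0.0358), and over 12 tumors it was at -0.21 ± 0.29 (SE, edgeR adjusted p = 1.000). In the same 10 tumors 12 T cell genes summed to 181 to 282 CPM in ALPN-202 tumors and 33.6 to 73.4 CPM in Fc control tumors, and the macrophage and monocyte genes (12 tested of 13 listed) to 7690 to 8978 CPM and 3031 to 5324 CPM. The 8 fibroblast genes summed to 11065, 7872 and 11607 CPM in ALPN-202 tumors and 6882, 6628 and 7182 CPM in Fc control tumors. These 3 sums did not overlap between the groups. Of the 8 fibroblast genes, 5 had a positive and 3 a negative log2 fold change there (-0.36 to 1.15). In CPM 4 of the 8 were above in every ALPN-202 tumor, as were 18.9% of all genes. The part of the 3 sums in the lower member levels was not tested.

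Between anti-PD-L1 and Fc control tumors no member passed in any of the 3 tools. edgeR called 0 of 89 members in either direction over 12 tumors (background 0.0% each way), with 0 members up and 1 down before adjustment, against 1.44% and 0.629% of all genes. DESeq2 and limma-voom with quality weights called 0 members too. Once the 2 libraries were dropped, edgeR again called 0 members (background 0.0%), with 0 higher and 1 lower before adjustment, against 2.15% and 1.97%. The median log2 fold change of the mitochondrial mRNAs was -0.02, and -0.26 without anti-PD-L1 replicate 2, the tumor rich in adipocyte genes. That of the nuclear genes was -0.47 over 12 tumors, -0.04 without Fc control replicate 1 and -0.03 without both libraries.

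In CPM 4 nuclear members (4.49% of 89) lay below in every anti-PD-L1 tumor, against 1.53% of all genes, and 0 lay above, against 1.1%. They were Atp5g1, Atp5g2, Cox4i2 and Cox7c. All 4 had few counts, at most 144 in any tumor. Without the 2 libraries 4 members (4.49%) lay below and 0 above, against 2.62% and 1.75%. Atp5g2, an isoform of the membrane ring subunit c of complex V, had 0.765, 0.602, 0.932 and 1.07 CPM in anti-PD-L1 tumors and 1.50, 1.27, 1.12 and 2.12 CPM in Fc control tumors (log2 fold change -0.82 ± 0.37 SE, edgeR adjusted p = 0.826), from 6 to 21 counts in these 8 tumors. mt-Nd1 had 873, 1678, 989 and 871 CPM in anti-PD-L1 tumors and was at -0.24 ± 0.23 (SE) against Fc control. Sdha had 167, 319, 178 and 209 CPM in anti-PD-L1 tumors, against 123, 169, 180 and 205 CPM in Fc control tumors (log2 fold change 0.37 ± 0.27 SE, edgeR adjusted p = 0.826), and its 319 CPM again belonged to anti-PD-L1 replicate 2.

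Between ALPN-202 and anti-PD-L1 edgeR called 0 of 89 members over 12 tumors (background 0.0% each way), with 1 higher and 0 lower before adjustment, against 6.82% and 2.47% of all genes. DESeq2 called 0 members, against 1.12% of genes higher and 0.311% lower, and limma-voom called Ndufa4l2 higher and mt-Nd6 lower, against 11.6% and 2.42%. In CPM 0 members lay above and 0 below in every ALPN-202 tumor, against 4.8% and 2.75%. With the 2 libraries left out, 0 members were higher and 2 (2.25%), Cox6c and Ndufa4, were lower, against 4.5% and 0.702% of all genes. Before adjustment 1 was higher and 13 (14.6%) lower, against 12.3% and 8.57%, and in CPM 11 members (12.4%) were below in every ALPN-202 tumor and 0 above, against 6.46% and 13.3%. The nuclear median was 0.67 over 12 tumors, and -0.11 without ALPN-202 replicate 4 alone. The mitochondrial mRNAs had a median of -0.19, which was -0.37 without both libraries and -0.04 without anti-PD-L1 replicate 2.

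Several subunits have tissue isoforms. Ndufa4l2 (chr10:126951995-126954208, plus strand), a relative of Ndufa4 that is induced by hypoxia and marks pericytes, had 10.2, 6.19, 8.38 and 2.29 CPM in ALPN-202 tumors, 3.39, 7.02, 3.08 and 2.22 CPM in anti-PD-L1 tumors and 0.501, 3.81, 2.84 and 5.14 CPM in Fc control tumors. Its log2 fold change against Fc control was 1.14 ± 0.59 (SE, edgeR adjusted p = 0.632), and 1.05 ± 0.41 without the 2 libraries (SE, edgeR adjusted p = 0.135). There the 3 ALPN-202 tumors lay above the 3 Fc control tumors, as they did for 18.9% of all genes. Ndufa4 and Ndufa4l2 had fold changes of opposite sign in those tumors, and of this pair edgeR called only Ndufa4 there. The 8 pericyte genes, which include Ndufa4l2 and Cox4i2, summed to 272, 212, 315 and 116 CPM in ALPN-202 tumors and 99.3, 226, 223 and 256 CPM in Fc control tumors. Their part in the level of Ndufa4l2 was not tested.

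Cox8b, the muscle and brown fat isoform of a small complex IV subunit (chr7:148084842-148086345, minus strand), had 0.138, 0.667, 1.60 and 3.92 CPM in ALPN-202 tumors, 1.09, 25.9, 0.0932 and 4.09 CPM in anti-PD-L1 tumors and 1.67, 1.04, 0.172 and 3.43 CPM in Fc control tumors. The 4 highest values belonged to the 4 tumors with high adipocyte genes. Anti-PD-L1 replicate 2 was the highest in both Cox8b and the adipocyte sum, and the part of adipose tissue in the Cox8b level was not tested. Of 6 brown or beige fat genes, Ucp1, Cpt1b and Ppargc1a were too low to test, and the other 3 summed to 36.2 CPM in anti-PD-L1 replicate 2 and 10.8 to 16.9 CPM elsewhere. These 3 did not go together. Between anti-PD-L1 and Fc control 1 had a positive log2 fold change (3.12) and 2 a negative one, among them Dio2 at -0.21. The skeletal muscle genes (14 tested of 15) summed to 272 CPM in anti-PD-L1 replicate 2, within the 7.02 to 757 CPM of all 12. The log2 fold change of Cox8b was 2.30 ± 1.27 between anti-PD-L1 and Fc control (SE, edgeR adjusted p = 0.826) and -2.49 ± 1.33 between ALPN-202 and anti-PD-L1 (SE, edgeR adjusted p = 0.588). Without anti-PD-L1 replicate 2 these were 0.18 and -0.37. The common isoform Cox8a had 169 to 430 CPM in ALPN-202 tumors, 182 to 250 CPM in anti-PD-L1 tumors and 171 to 410 CPM in Fc control tumors. Cox7a1, also of muscle and fat, stayed below the minimum and had its highest count, 29, in anti-PD-L1 replicate 2.

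**Figure D5:**
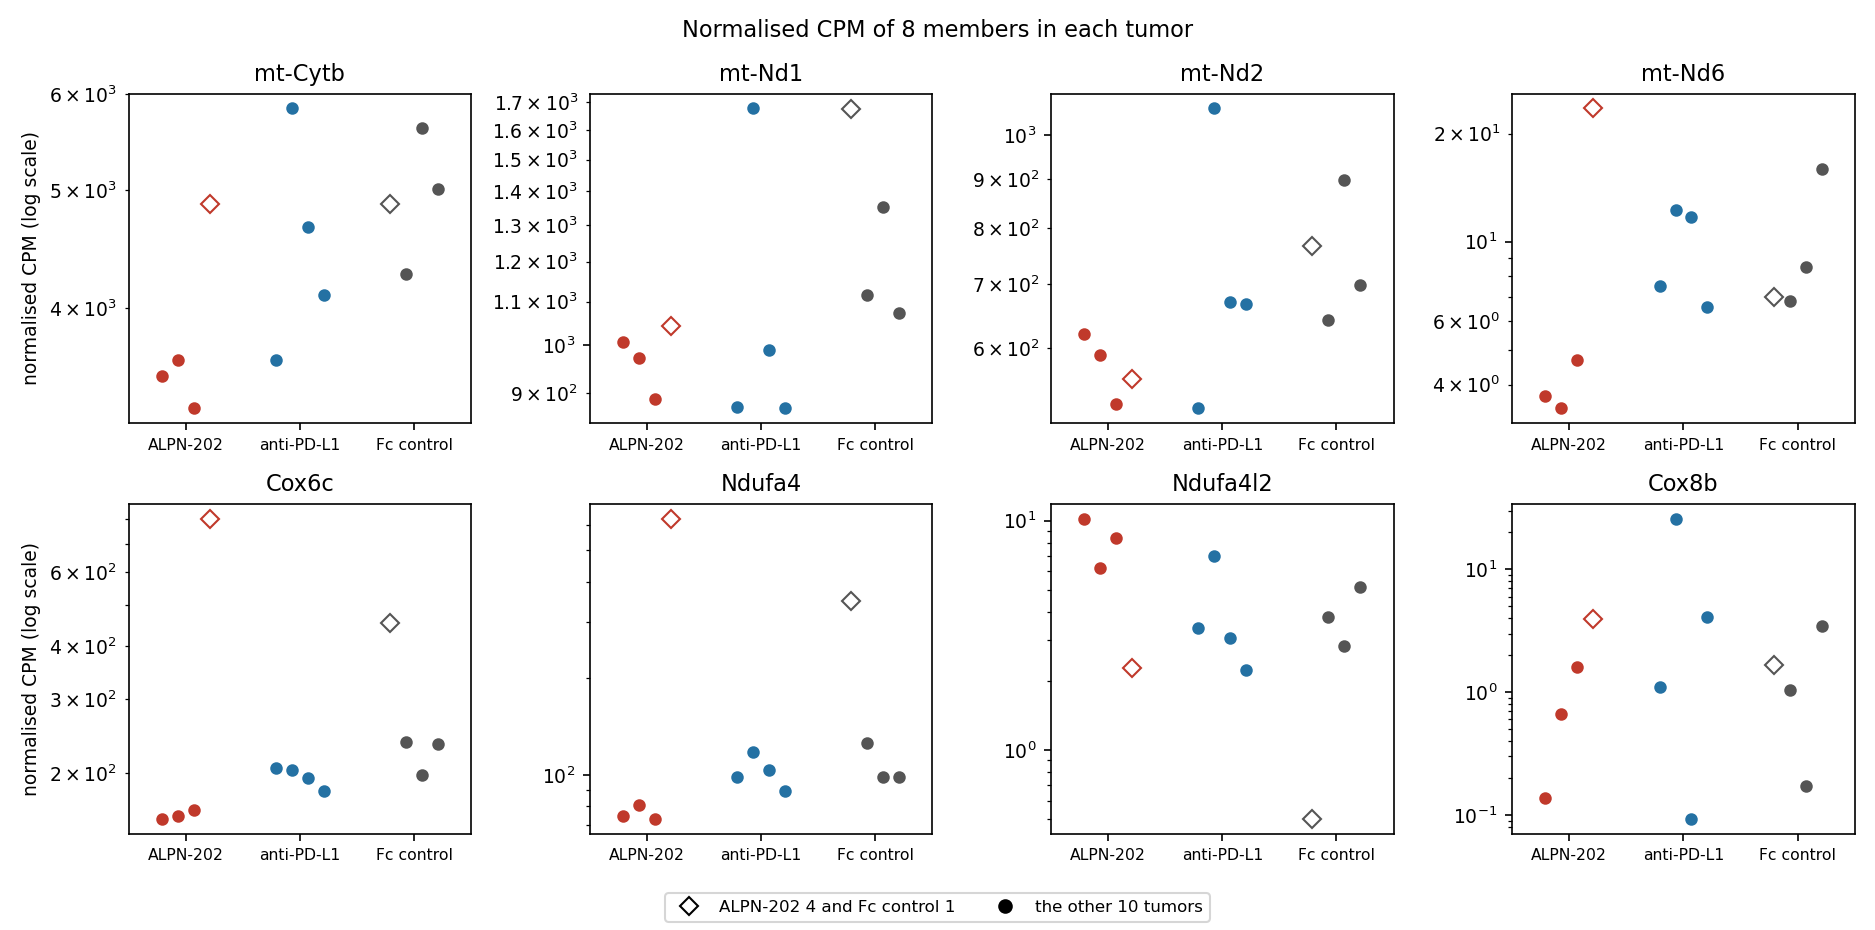
Normalised CPM (log scale) of 8 members in each of 12 tumors, where open diamonds mark ALPN-202 replicate 4 and Fc control replicate 1. mt-Nd1 and mt-Nd2 do not overlap between ALPN-202 and Fc control, Cox6c and Ndufa4 are lowest in ALPN-202 replicates 1 to 3, and Cox8b is highest in anti-PD-L1 replicate 2 at 25.9 CPM.

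Cox4i2, the isoform of Cox4i1 found in lung and in oxygen-sensing cells, had 2.20, 1.43, 1.60 and 6.53 CPM in ALPN-202 tumors and 0.875, 1.50, 1.31 and 0.622 CPM in anti-PD-L1 tumors. It was the member with the smallest p between them, at 1.33 ± 0.51 over 12 tumors (log2, SE, edgeR adjusted p = 0.425), and at 0.67 without ALPN-202 replicate 4 and 0.65 without both libraries. Cox4i1 had 388, 364, 405 and 2808 CPM in ALPN-202 tumors and 453, 483, 421 and 356 CPM in anti-PD-L1 tumors. The heart and muscle isoform Cox6a2 was read at 32.5 to 120 CPM and the common isoform Cox6a1 at 171 to 534 CPM over all tumors. Among the c-ring genes of complex V, Atp5g3 had 281 to 1152 CPM, Atp5g1 8.39 to 26.1 CPM and Atp5g2 0.598 to 2.12 CPM. Of the read-length windows of Atp5g1 and Atp5g2, 27.6% and 100% occurred elsewhere in the genome, against 0% for Atp5g3. The levels of Atp5g1 and Atp5g2 are therefore uncertain. CPM also do not divide by transcript length, which is 862 bases for Atp5g3, 4715 bases for Atp5g1 and 647 bases for Atp5g2. The share of each isoform was not tested. Atp5sl, the member with the smallest p between ALPN-202 and Fc control, had 13.1, 12.7, 14.4 and 11.8 CPM in ALPN-202 tumors and 9.19, 10.7, 7.22 and 9.48 CPM in Fc control tumors. These did not overlap, as in 2.67% of all genes above in every tumor, and the log2 fold change was 0.51 ± 0.23 (SE, edgeR adjusted p = 0.541).

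Complex II has no mitochondrially encoded subunit. Sdhb, its iron-sulfur protein, had 149, 159, 150 and 358 CPM in ALPN-202 tumors and 308, 171, 113 and 136 CPM in Fc control tumors. Sdhd, a membrane anchor, had 161, 168, 157 and 781 CPM in ALPN-202 tumors and 560, 218, 151 and 146 CPM in Fc control tumors. Sdhc, the other anchor, had 126, 120, 136 and 238 CPM in ALPN-202 tumors and 254, 148, 124 and 140 CPM in Fc control tumors. In all 3 the 2 libraries were the highest of the 12, whereas Sdha had 193, 193, 185 and 98.0 CPM in ALPN-202 tumors and was lowest in those libraries, so subunits of 1 complex lay at opposite ends there. Transcript lengths were 2900 bases for Sdha, 1232 bases for Sdhb, 3171 bases for Sdhc and 1287 bases for Sdhd.

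The promoters of the nuclear members were also read. RefSeq sequences (GRCm38.p6, 250 bases before to 50 after the start) were found for 65 of the 80 nuclear members. The core of the NRF-1 motif (GCGCA, any base, then GCGC, read on both strands) occurred in 16 of 65 (24.6%), against 4.78% of 27025 promoters. The ETS motif CCGGAAG, read on both strands, occurred in 14 (21.5%), against 9.12%. The 27025 promoters were not limited to genes expressed in these tumors, whereas the members had to reach the count minimum, so the shares are not of like genes. A match describes the letters of this window and no binding was measured. Cox6a1 is shown because it held both motifs (chr5:115348959-115349208, minus strand, GRCm38.p6, 250 bases before the start), with both motifs, on either strand, in capitals.
Cox6a1: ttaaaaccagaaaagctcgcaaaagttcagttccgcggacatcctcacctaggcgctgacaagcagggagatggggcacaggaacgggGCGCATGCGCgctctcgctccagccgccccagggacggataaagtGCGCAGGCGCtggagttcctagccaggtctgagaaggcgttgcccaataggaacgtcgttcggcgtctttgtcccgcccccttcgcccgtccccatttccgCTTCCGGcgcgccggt
Sdha and Sdhd both carry the NRF-1 core, and in the 2 libraries Sdhd was highest and Sdha lowest of the 12 tumors. The part of the motifs in these levels was not tested.

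Other mitochondrial genes were read from 7 lists. Between ALPN-202 and Fc control edgeR called 0 of their genes over 12 tumors, and DESeq2 called 1, a regulator that was higher. The medians were 0.15 for 77 mitochondrial ribosomal proteins, 0.10 for 16 chain genes outside the name rule such as Cyc1 and Cycs, 0.02 for 28 assembly factors, -0.05 for 23 genes of mitochondrial DNA upkeep and transcription, -0.03 for 17 genes of the tricarboxylic acid cycle, 0.05 for 10 nuclear regulators and -0.01 for 8 carriers and uncoupling proteins. Once the 2 libraries were dropped, the medians lay between -0.15 (DNA upkeep and transcription) and 0.02 (regulators). There 2 assembly factors were lower, as was 1 gene each among the mitochondrial ribosomal proteins, the chain genes outside the rule, the DNA upkeep genes and the tricarboxylic acid cycle, while 1 regulator and 1 carrier were higher. Of all genes 2.0% were lower and 5.47% higher in that fit. The smallest p among the carriers belonged to the uncoupling protein Ucp2, at 1.07 ± 0.35 over 12 tumors (log2, SE, edgeR adjusted p = 0.372), and among the regulators to Nfe2l2, a regulator of the oxidative stress response, at 0.40 ± 0.13 (log2, SE, edgeR adjusted p = 0.364). The cytosolic ribosomal proteins had a median of 0.12 over 12 tumors and -0.38 without the 2 libraries, with 16 of 82 lower, against 2.0% of all genes.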

How the data were processed

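RNA-seq of 12 tumors was used. The raw counts per gene, as deposited by the authors, came from SMART-Seq v4 full-length cDNA, Nextera XT libraries without strand and 58-base single reads, counted with htseq-count. STAR is the aligner in the Methods. In the submitters' processing notes TopHat 1.4.1 appears, along with SAMtools 1.2, FastQC 0.11.3, HTSeq 0.4.1, Picard 1.134 and the NCBIM37 build. Which aligner made the file could not be decided. The TPM were made by the authors from the counts and transcript lengths and deposited beside them. Total counts were 3988266 to 10692817 per tumor.

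Counts were scaled by TMM, filtered (filterByExpr, minimum count 10, minimum total 15; 14142 genes) and tested in 1 quasi-likelihood fit of 12 tumors (edgeR 4.0.16, R 4.3.3), adjusted by Benjamini-Hochberg over all genes, threshold 0.05. Members and gene lists were chosen with earlier results of these data known. Named genes are the mitochondrial genes, the 5 nuclear members with the lowest p per comparison and direction, the highest and lowest member of each complex by TPM, the Sdh genes, the isoform pairs and up to 4 genes of each list by smallest p. Copies of 58-base windows and the aligned stretch (BLAST 2.17.0) were searched in NCBIM37. Deviations are log2 CPM (prior count 0.5) minus the median tumor. Lengths are the longest transcript. Alternatives included DESeq2 1.42.0, limma-voom (limma 3.58.1), other scalings and filters, length offsets, a threshold of 0.1 and left-out tumors. The fits were tested on simulated data. No label says how many mice or litters gave the tumors of a group, so p-values measure the spread between these tumors.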

Additional observations from a re-analysis of the deposited data

Results flagged for a closer look

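In groups of 4 tumors, the highest or lowest tumor was far from its group (by Dixon's ratio of its gap to the range) for the values below. Chance gives this in about 1 in 20 groups, but their number cannot be set against that rate, because several genes were named for their values in ALPN-202 replicate 4 and the genes move together across tumors. Most of the values belonged to ALPN-202 replicate 4. Nuclear members took 2.64% of its counts, against 0.952% to 1.01% in the other ALPN-202 tumors, and its log2 ratio of mitochondrial mRNA to nuclear counts was -1.81, against -0.28 to -0.08. It was high for mt-Nd6 (23.5 CPM), mt-Rnr1 (1214 CPM), mt-Rnr2 (1973 CPM), Uqcrh (1729 CPM), Atp5e (1615 CPM), Cox6c (803 CPM), Ndufa4 (627 CPM), Atp5d (795 CPM) and Cox4i2 (6.53 CPM). It was low for mt-Nd5 (334 CPM) and Sdha (98.0 CPM). Fc control replicate 1 stood high in its group for Uqcrh (581 CPM), Cox6c (455 CPM) and Ndufa4 (348 CPM). Anti-PD-L1 replicate 2 stood high for mt-Nd1 (1678 CPM, against 871 to 989 CPM), mt-Nd4 (1546 CPM) and Cox8b (25.9 CPM). Anti-PD-L1 replicate 4 was low for Atp5d, at 353 CPM, against 403 to 405 CPM in its group.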

How the results depend on the processing

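Of 721 values under an alternative, 683 kept their direction and side of the threshold, or moved little. For the medians and the log2 ratio, little meant less than the SD between tumors of the compared groups, whatever the sign. The nuclear median of ALPN-202 against Fc control, 0.22 over 12 tumors and -0.54 without ALPN-202 replicate 4, counted as the same. limma-voom with quality weights called 9 members between ALPN-202 and Fc control and 2 between ALPN-202 and anti-PD-L1, and leaving out both libraries gave 4 and 2, against 0 in the fit of 12 tumors. Leaving out 1 tumor gave 0 called members in every comparison. The share of all genes called in those fits was not compared, and over 12 tumors edgeR called 0.0% of all genes in each comparison.

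Between ALPN-202 and anti-PD-L1 the nuclear median was -0.065 with limma-voom and -0.13 without both libraries, and the mitochondrial mRNA median was -0.52 with length offsets. With 1 tumor left out the nuclear median ranged over -0.54 to 0.53 (ALPN-202 against Fc control), -0.65 to -0.04 (anti-PD-L1 against Fc control) and -0.11 to 0.86 (ALPN-202 against anti-PD-L1). The mitochondrial mRNA median ranged over -0.46 to -0.29, -0.26 to 0.09 and -0.35 to -0.04, and the difference in log2 ratio over -0.56 to 0.09, -0.06 to 0.41 and -0.67 to -0.09.

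Between ALPN-202 and Fc control, leaving out 1 tumor turned mt-Nd5 (range -0.091 to 0.24), mt-Nd6 (-1.29 to 0.16) and mt-Co1 (-0.21 to 0.0086). Without ALPN-202 replicate 4 Uqcrh was at -0.95, Atp5e at -0.83, Cox6c at -0.82 and Ndufa4 at -1.14, and without both libraries at -0.19, -0.19, -0.50 and -0.52. Their highest values, without Fc control replicate 1, were 1.81, 1.67, 0.51 and 0.98. Between ALPN-202 and anti-PD-L1 mt-Nd6 ranged over -1.28 to 0.094 with 1 tumor left out. Cox6c (highest 0.93) turned to -0.31 without ALPN-202 replicate 4 and -0.33 without both libraries, and Ndufa4 (highest 1.34) to -0.44 and -0.46. mt-Nd1 between anti-PD-L1 and Fc control (0.0033) and Ndufa4 between ALPN-202 and Fc control (-0.12) turned with length offsets. The cause was not tested.

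The replicate numbers did not pair the tumors: 2 of 12 libraries correlated best with one of their own number. With the replicate block 0 members were called (the share of all genes was not compared), and Cox6c (-0.080) and Ndufa4 (-0.087) turned between ALPN-202 and Fc control. Depth limits mt-Nd6, Cox8b, Cox4i2, Atp5g2 and Ndufa4l2, which had 1 to 258 counts in a tumor.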
